A study of Mus musculus with 6 samples.

Results

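Genes of 6 secreted, matrix and cell-surface proteins, Igfbp6, Clec11a, Cer1, Has1, Upk1b and Itgb6, were followed in RNA from islets, the endocrine clusters of the pancreas, of mice fed high-fat or normal food. They were chosen by name, as secreted, matrix or surface genes of mesothelial, stromal or epithelial cells, with earlier results of these data known. Cer1, however, is in none of the cell type marker lists read below. The genes are 6 of the 54 in the deposited table. All 54 rows carry an authors' p-value for the diet comparison no higher than 0.00999. The diet difference thus belongs to how the genes were chosen, so it is described here and not tested. Mice of the C57BL/6 strain ate high-fat food (3 libraries) or normal food (control diet, 3 libraries), for 22 weeks by the sample labels and 27 weeks by the series' design text, a mismatch that could not be settled. No age, sex, genotype or agent is given in the labels used here, nor whether a library is 1 animal or a pool. Each value is an FPKM, the authors' fragment count scaled by transcript length and library size. Libraries are numbered within a diet in the order of their records, and these numbers pair nothing across diets.

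Mesothelial cells form the thin lining over the pancreas and other abdominal organs, and stromal cells such as fibroblasts fill the tissue between its lobules. The mesothelial lining lies outside the islet. Both cell types are known for making hyaluronan and other matrix and for secreting proteins that bind growth factors. Among the 6 genes, Igfbp6, Clec11a and Cer1 encode secreted proteins, Has1 encodes an enzyme that makes matrix, and Upk1b and Itgb6 encode membrane proteins.

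The genes lie on 6 different chromosomes of GRCm38 (GENCODE M21). Igfbp6 (ENSMUSG00000023046) spans 102144362 to 102149511 on the plus strand of chromosome 15, and the other 5 lie on minus strands. Clec11a (ENSMUSG00000004473) spans 44302687 to 44306902 on chromosome 7, and Cer1 (ENSMUSG00000038192) spans 82881751 to 82885148 on chromosome 4. Has1 (ENSMUSG00000003665) spans 17843323 to 17855205 on chromosome 17. Upk1b (ENSMUSG00000049436) spans 38773184 to 38800328 on chromosome 16, and Itgb6 (ENSMUSG00000026971) spans 60598292 to 60722643 on chromosome 2. All 6 are protein-coding, the values are per gene, and the annotated exons of each share 0 bases with any other annotated gene. Their longest coding transcripts run from 1112 bases in 4 exons for Igfbp6 to 4806 bases in 15 exons for Itgb6.

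The 250 bases before the RefSeq start site (GRCm38.p6) are shown for the secreted factors, all 3 of which were lower on the high-fat diet and whose windows hold none of their own annotated exon bases. Capitals mark matches, on either strand, to any of 7 short motifs searched.
Igfbp6, chr15:102143936-102144185, plus strand: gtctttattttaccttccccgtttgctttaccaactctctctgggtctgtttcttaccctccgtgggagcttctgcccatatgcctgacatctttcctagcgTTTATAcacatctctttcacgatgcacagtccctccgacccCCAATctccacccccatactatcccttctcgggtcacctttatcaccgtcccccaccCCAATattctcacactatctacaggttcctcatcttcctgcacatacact
Clec11a, chr7:44306960-44307209, minus strand: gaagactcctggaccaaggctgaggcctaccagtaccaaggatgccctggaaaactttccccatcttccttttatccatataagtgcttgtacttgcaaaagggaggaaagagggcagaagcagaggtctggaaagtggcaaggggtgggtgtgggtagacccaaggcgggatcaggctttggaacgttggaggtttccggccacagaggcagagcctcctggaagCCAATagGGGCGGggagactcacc
Cer1, chr4:82885152-82885401, minus strand: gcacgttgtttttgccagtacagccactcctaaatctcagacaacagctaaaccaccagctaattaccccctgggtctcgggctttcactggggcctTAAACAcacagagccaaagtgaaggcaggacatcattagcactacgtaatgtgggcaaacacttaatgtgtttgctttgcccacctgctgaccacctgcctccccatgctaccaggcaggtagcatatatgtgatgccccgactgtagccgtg

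The TATA box was searched as TATAAA, the CCAAT box by its name, the GC box as GGGCGG and the AP-1 site as TGANTCA. The E-box was searched as CACGTG, the TEAD site as GGAATG and the forkhead site as TAAACA. Positions are counted back from the start site to the first capital as printed, and no 2 matches in the printed windows overlap. The Igfbp6 window holds CCAAT at 107 and 50 bases before the start and a reverse-strand TATAAA at 148. The Clec11a window holds CCAAT at 24 and GGGCGG at 17 bases before the start. The Cer1 window holds TAAACA at 153 bases before the start. Of 32851 RefSeq windows of the same length, CCAAT was found in 33.9%, GGGCGG in 32.7%, TATAAA in 12.4% and TAAACA in 12.03%, so each is a common word. Has1 also had a CCAAT, at 203 bases before its start, and of the 2 Itgb6 windows only the downstream one held a motif, TAAACA. The motif most of them had was the CCAAT box, in 3 of the 5 genes with a window. Upk1b had no entry. CpG pairs numbered 7, 4, 5 and 4 in the Igfbp6, Clec11a, Cer1 and Has1 windows and 11 and 3 in the upstream and downstream Itgb6 windows, against a median of 6 over all windows. A match describes the letters and is not a binding site.

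The mean of each of the 6 genes was lower under high-fat feeding, and in all 6 every high-fat library lay below every control library. Over the 54 rows, 33.3% had both a lower mean and no overlap, and 94.4% had no overlap in either direction, so separated libraries are the rule in this table. In all, 4 of the 6 genes were listed at 0 in at least 1 high-fat library, against 13% of all rows, and 0 of the 6 were listed at 0 in a control library, against 3.7% of all rows. The 7 rows of the table with a high-fat 0 were all among the 18 rows lower on that diet. Since their controls lay above their high-fat libraries, the 6 genes could not be at 0 in a control library. The high-fat libraries 1 and 2 each listed 3 of the genes at 0, and library 3 listed 1. In bulk RNA, fewer cells of a type and less RNA per cell cannot be told apart.

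**Figure D1:**
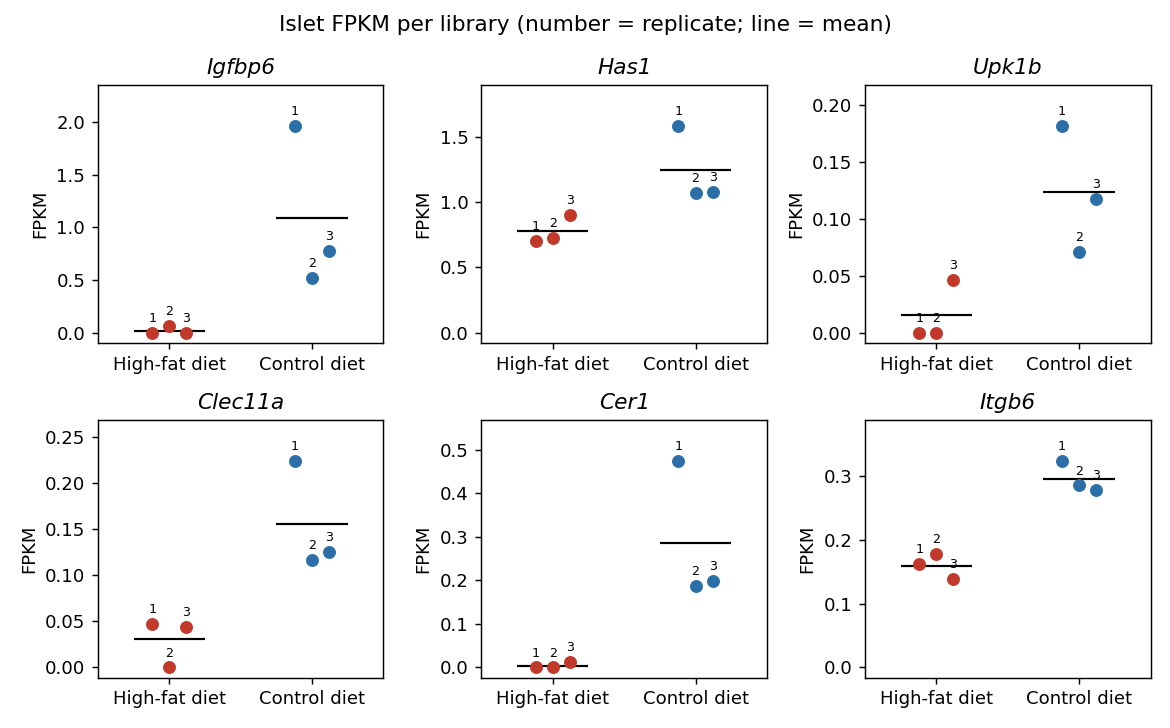
FPKM of each gene (vertical axes, linear, each with its own scale) in the 3 high-fat and 3 control libraries; points are libraries with their replicate number and lines are means. Every high-fat point lies below every control point, and control library 1 is the highest point in all 6 panels.

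Igfbp6 encodes a secreted binding protein of insulin-like growth factors with a preference for IGF-II. It was listed at 0, 0.0596 and 0 FPKM in high-fat libraries 1 to 3, against 1.96, 0.523 and 0.775 FPKM in control libraries 1 to 3. The lowest control library was 8.78 times the highest high-fat library. The control level averaged 1.09 ± 0.769 FPKM (SD, n = 3), a coefficient of variation (SD over mean) of 70.8%, the widest of the 6 genes on that diet. On the log2(FPKM + 0.1) scale the high-fat libraries were lower by a difference of -3.15 (SE 0.56). A library listed at 0 takes its log2 value from the added 0.1 alone. The SE therefore depends on that setting, here and for Cer1, Clec11a and Upk1b. Control library 1 carried much of that control mean, at 3.03 times the mean of the other 2. Without it the log2 ratio of means, which was -5.77 with all libraries, was -5.03.

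Cer1 encodes a secreted antagonist of BMP and Nodal ligands, best known from the early embryo. It was listed at 0 in high-fat libraries 1 and 2 and at 0.0116 FPKM in library 3, against 0.475, 0.187 and 0.1996 FPKM in the control libraries. Its lowest control library was 16.1 times its highest high-fat library, the widest such gap of the 6 genes in ratio. The log2(FPKM + 0.1) difference was -1.82 (SE 0.33). It had the lowest log2 ratio of means of all 54 rows, -6.21, which rests on the single high-fat library above 0; without that library the ratio has no finite value, as is also so for Igfbp6 and Upk1b.

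Clec11a encodes a secreted C-type lectin domain protein that acts as a growth factor for blood and bone progenitors and is made by stromal cells of bone marrow. It stood at 0.0473 FPKM in high-fat library 1, was listed at 0 in library 2 and stood at 0.0443 FPKM in library 3, against 0.224, 0.116 and 0.125 FPKM in the control libraries. High-fat libraries 1 and 3 were close to each other, and the lowest control library was 2.46 times the higher of them. The log2(FPKM + 0.1) difference was -0.97 (SE 0.26). In the authors' deposited table it had the lowest p-value of the 54 rows, 8.03e-05, although its log2 ratio of means, -2.35, was only the 7th lowest.

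Has1 encodes a membrane enzyme that synthesizes hyaluronan, a long sugar polymer of the matrix around mesothelial and stromal cells. Its level was 0.702, 0.726 and 0.905 FPKM under high-fat feeding, against 1.58, 1.07 and 1.08 FPKM in the control libraries. It averaged 0.777 ± 0.111 FPKM on the high-fat diet and 1.24 ± 0.292 FPKM on the control diet (SD, n = 3 each), so 62.5% of the control level was left. The gap was narrow, since the lowest control library was 1.18 times the highest high-fat library. The log2(FPKM + 0.1) difference was -0.60 (SE 0.20). Without control library 1 it was -0.43, and without high-fat library 3 it was -0.70.

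Upk1b encodes a tetraspanin of the plaques that cover bladder epithelium and is also known from mesothelium. It was listed at 0 in high-fat libraries 1 and 2 and at 0.0464 FPKM in library 3, against 0.182, 0.0709 and 0.117 FPKM in the control libraries. High-fat library 3 came near the lowest control library, which was 1.53 times as high. The log2(FPKM + 0.1) difference was -0.95 (SE 0.28). With a mean of 0.0694 FPKM over all libraries it ranked 53rd of 54 rows by level.

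Itgb6 encodes the integrin beta6 subunit, which pairs with alphav on epithelial cells and binds latent TGF-beta. Its level was 0.162, 0.177 and 0.138 FPKM under high-fat feeding, against 0.323, 0.285 and 0.278 FPKM in the control libraries. It averaged 0.159 ± 0.0196 FPKM on the high-fat diet and 0.295 ± 0.0246 FPKM on the control diet (SD, n = 3 each), so 53.9% of the control level was left. Its libraries were the tightest of the 6 genes, with a coefficient of variation of 12.3% on the high-fat and 8.32% on the control diet. The log2(FPKM + 0.1) difference of -0.61 had an SE of 0.082, the smallest of the 6. With 0.1 FPKM added, Itgb6 and Has1 thus had almost the same log2 difference, with different spread. As log2 ratios of means they differed more, at -0.89 for Itgb6 and -0.68 for Has1. Itgb6 and Has1 were the 2 genes above 0 in every library.

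**Figure D2:**
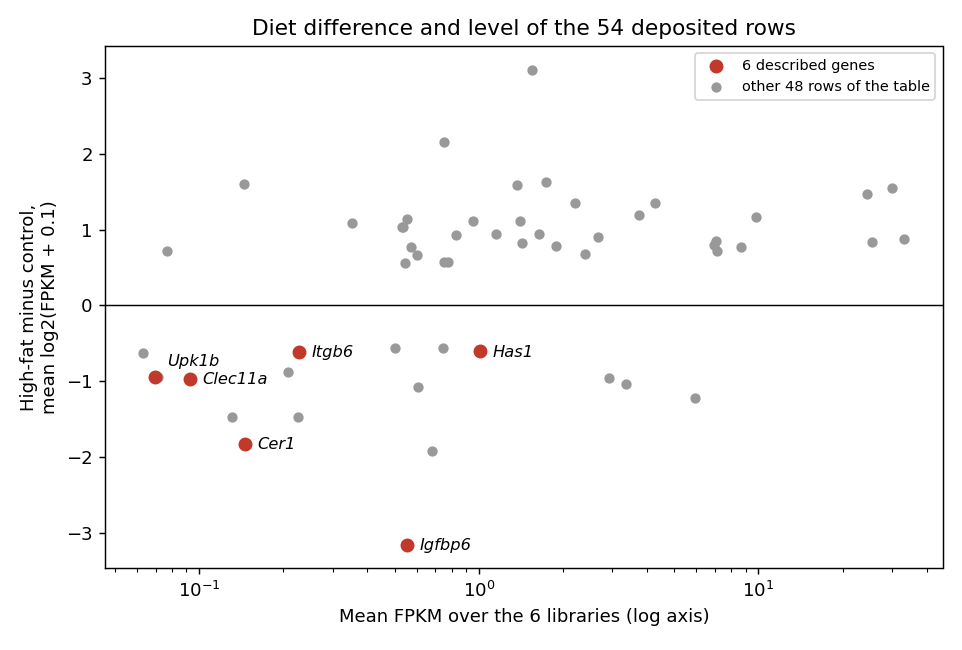
Difference between diets (vertical axis, high-fat minus control, mean log2(FPKM + 0.1)) against mean FPKM over the 6 libraries (horizontal log axis) for the 6 genes in red and the other 48 rows in grey. The red points lie between -3.15 and -0.60, with Igfbp6 lowest of all rows.

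The 6 genes were low in both diets. By mean FPKM, which is per length, the order on the high-fat diet was Has1, Itgb6, Clec11a, Igfbp6, Upk1b and Cer1. On that diet Has1 lay above Itgb6 and Itgb6 above Clec11a in every library without overlap, while the last 4 overlapped as neighbours. The order on the control diet was Has1, Igfbp6, Itgb6, Cer1, Clec11a and Upk1b, and there the neighbours overlapped except Igfbp6 and Itgb6. Compared within each control library, Cer1 still lay above Clec11a and Clec11a above Upk1b in all 3. Has1 lay above Igfbp6, and Itgb6 above Cer1, in 2 of them. Igfbp6 thus stood at rank 4 on the high-fat diet and rank 2 on the control diet. Summed over the 6 genes, the level was 0.911, 0.963 and 1.15 FPKM in the high-fat libraries, against 4.75, 2.25 and 2.58 FPKM in the control libraries.

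How much sequencing stands behind such levels is unknown, because the table gives no read totals. Taking the longest coding transcript of each gene as its length, a library would need about 49400000 fragments for 1 of them to give the 0.0116 FPKM of Cer1. The same reckoning for the lowest value above 0 gave about 15100000 fragments for Igfbp6, 11400000 for Upk1b and 7590000 for Clec11a. It gave about 1500000 for Itgb6 and 680000 for Has1. The sources used here do not give the lengths behind the authors' FPKM, so these are orders of size. A value listed at 0 therefore says that the gene was not detected at an unknown depth, not that it was absent.

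Within the control diet, library 1 was the highest of the 3 for all 6 genes, and library 2 was the lowest for 5 of them. The same library was the highest control for 85.2% of all 54 rows and for 83.3% of the 36 rows higher on the high-fat diet, so this order was shared across the table. Library 1 stood above the mean of the other controls by a ratio of 1.15 for Itgb6, 1.47 for Has1, 1.86 for Clec11a, 1.93 for Upk1b, 2.46 for Cer1 and 3.03 for Igfbp6. The median ratio was 1.89 over the 6 genes and 1.59 over all rows. The median FPKM over the 54 picked rows was 1.27, 0.982 and 1.304 in the high-fat libraries, against 1.09, 0.548 and 0.642 in the control libraries. Every control library, libraries 2 and 3 included, lay above every high-fat library for each of the 6 genes. The same held for all 18 rows lower on the high-fat diet, so this separation was shared by such rows. The part of library level in the differences was not tested.

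**Figure D3:**
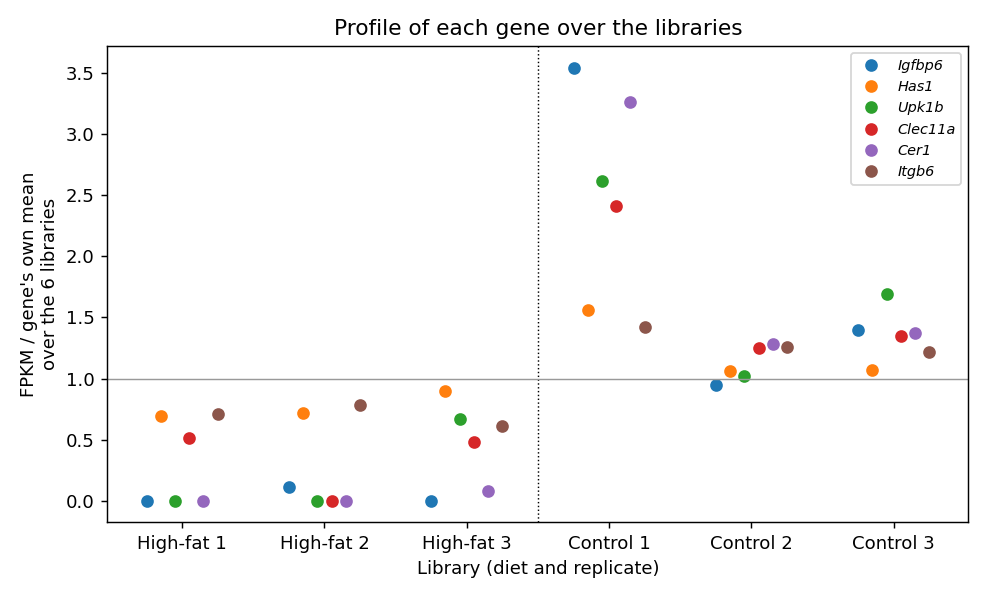
FPKM of each gene divided by its own mean over the 6 libraries (vertical axis) in each high-fat and control library (horizontal axis). Igfbp6 and Cer1 reach 3.55 and 3.26 in control library 1 and lie at 0.108 or below in the high-fat libraries, whereas Itgb6 stays between 0.609 and 1.42.

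Likeness of profile was measured as the root-mean-square difference between 2 genes' FPKM, each divided by its own mean, over the 6 libraries. Igfbp6 and Cer1 were each other's nearest row of all 54, at 0.190, where the median difference to the other rows was 1.43 for Igfbp6 and 1.37 for Cer1. Upk1b was nearest to Camp, the cathelicidin antimicrobial peptide gene, at 0.158. Clec11a was nearest to Lrtm2, a leucine-rich repeat membrane protein gene, at 0.220. Itgb6 was nearest to Selenbp1, a selenium-binding protein gene, at 0.0751, and Has1 to Mctp2, a C2-domain membrane protein gene, at 0.104. All of these nearest rows were lower on the high-fat diet, as the measure includes the diet difference. Most other rows were higher on that diet, so the medians for Igfbp6 and Cer1 largely reflect diet direction. The median log2 ratio of means was -2.67 for the 6 genes, against -1.36 for the other 12 rows lower on the high-fat diet. With a pseudocount of 0.01 FPKM the median difference was -2.58 for the 6 genes and -1.30 for those 12 rows. With 0.1 FPKM it was -0.96 for the 6 genes and -0.99 for the 12 rows, so how the 2 sets compare depends on the pseudocount.

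**Figure D4:**
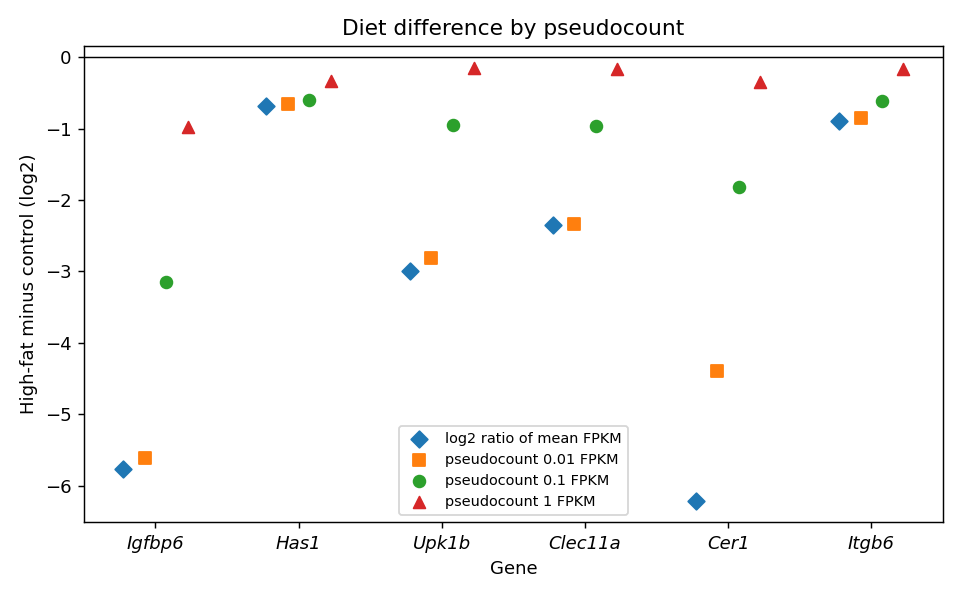
Difference between diets of each gene (vertical axis, log2, high-fat minus control) as the log2 ratio of mean FPKM and as mean log2(FPKM + pseudocount) with 3 pseudocounts. The Cer1 points run from -6.21 to -0.35, and the Has1 points from -0.68 to -0.33.

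Lists of related genes were read for other rows. Of 19 mesothelial markers, 3 were in the table, Has1, Upk1b and Igfbp6. Of 15 stromal or stellate markers Clec11a was present, and of 10 duct or other epithelial markers Itgb6. The lists were chosen with earlier results of these data known, and these lists hit no row outside the 6 genes. Such hits therefore say nothing about which cell types the table reflects. The table held 0 of 6 endothelial, 0 of 8 acinar, 0 of 7 leukocyte and 0 of 10 endocrine markers, so neither the islet label nor the cell make-up could be checked. Other mesothelial and stromal markers, such as Msln, Upk3b, Wt1, Col1a1 and Dcn, had no row in the table, so their levels are unknown here. Of the genes grouped with each member by pathway, the hyaluronan list (12 genes), the uroplakin and tetraspanin list (10), the BMP and Nodal list (23), the integrin and TGF-beta list (15) and the CLEC11A list (3) held no other row. The IGF list (13) held 1, Insr, the insulin receptor. Its mean went the other way, at 10.9 ± 2.02 FPKM on the high-fat diet and 6.46 ± 2.18 FPKM on the control diet (SD, n = 3 each). Unlike the 6 genes, Insr had libraries that overlapped between the diets.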

How the data were processed

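Islet total RNA of 6 libraries was sequenced. Libraries were prepared from Trizol-extracted RNA with a Vazyme total RNA kit, per the labels' protocols. StringTie 1.3.3, HISAT2 2.1.0, Trimmomatic 0.36 and the GRCm38 build are named in the submitters' processing notes, whereas the sources used here state no role, annotation, strand setting or filter. Per the file headers, the deposited table has 54 genes, each with an FPKM per library, an effect size, a score, a log2 fold change, a p-value and the mean and SD per diet. The deposited log2 fold change equals the log2 ratio of mean FPKM in all 54 rows within 1e-09. The test behind the authors' p-value, the formula of the deposited score and the rule that picked the rows are not stated, and read depth is unknown.

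Symbols were matched by Ensembl identifier for all 54 rows. For each gene the difference of mean log2(FPKM + 0.1) was computed, high-fat minus control, with its SE from the SDs of 3 libraries a diet (Python 3.11.15, pandas 2.3.3). The pseudocount of 0.1 understates differences of low genes. The genes, lists and motifs were chosen with earlier results of these data known, so no test was run. The genes named beside the 6 were the nearest profile to each and any row in a list. Alternatives were other pseudocounts, the ratio of means, scaling by each library's median, filters on level and leaving out each library. The calculations were tested on simulated data in which every gene was detected. The log2 difference was run there without a pseudocount, so undetected genes were not covered.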

Additional observations from a re-analysis of the deposited data

How the results depend on the processing

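All 6 genes stayed lower under high-fat feeding with pseudocounts of 0.01 and 1 FPKM, as a ratio of means, after division by each library's median over the 54 rows, and without each library in turn. All 6 stayed without overlap after that division and without each library in turn. Since every high-fat library lay below every control library, only the division could have changed the direction or brought an overlap. With a mean of at least 0.1 FPKM required, 4 genes were left without overlap, and with at least 1 FPKM required 1 was left, Has1, since the other 5 lie below that level. Of 60 recomputed differences of single genes, 41 moved by less than the spread between libraries, 19 by more and 0 turned direction. Leaving out 1 library gave 36 of the 60. With 3 libraries a diet, that change is always smaller than this spread, so these 36 could not have moved by more. Of the 19, 16 came from another pseudocount or none, as for Igfbp6 at -5.62 with 0.01 FPKM and -0.97 with 1 FPKM, which follows from levels below or near the pseudocount. The other 3 came from the division by library medians, which gave -1.23 for Has1, -1.29 for Clec11a and -1.09 for Itgb6. That division moved the median difference of all 54 rows from 0.78 to 0.14 and that of the 6 genes from -0.96 to -1.26. Its median is over picked rows, most of them higher on the high-fat diet, so it can add to a lower value. Without 1 library, differences ranged from -3.52 to -2.66 for Igfbp6 and from -2.00 to -1.50 for Cer1. No paired analysis was possible because the labels give the diets no shared replicate numbers and no test was run. Unknown depth limits the 4 genes with a value listed at 0 most.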
